A study of Mus musculus with 5 samples.

Results

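Neuropeptides are short signalling molecules that neurons cut out of longer precursor proteins, store in dense-core vesicles and release beside fast transmitters. In the dorsal root ganglion (DRG), which holds the cell bodies of sensory neurons, precursors such as those of calcitonin gene-related peptide (CGRP) and substance P mark peptidergic nociceptors, and others such as galanin are known for their rise after a nerve is cut. Cerebellar granule neurons (CGNs) are small glutamatergic neurons of the brain. A list of 10 neuropeptide precursor genes (Calca, Calcb, Tac1, Nts, Adcyap1, Gal, Npy, Vip, Cck and Sst) was followed in cultures of both kinds of neuron. Of these, 9 were found by gene symbol among the 15154 genes of the expression table, after the suffix that marks an assembled isoform was taken off. Vip was not analysed here.

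The study cultured neurons from postnatal day 8 C57bl/6j mice and sequenced their poly-A RNA. The 3 DRG libraries came from neurons kept 16 days on poly-d-lysine and laminin, and each combined the ganglia of a pair of mice. The 2 CGN libraries came from granule neurons of 1 mouse each, kept 16 hours on the same substrate. No gene was altered and no compound was compared, but the DRG medium held nerve growth factor and fluorodeoxyuridine, an antimitotic agent, against glia, so cell type cannot be told apart from time in culture, medium or number of mice. Values are FPKM, fragments of a transcript scaled to its length and to its library, here by the upper quartile. They allow levels of different genes to be set side by side. Summed over all genes they were not equal between libraries, and the DRG mean was 1.88 times the CGN mean. The table holds FPKM only, so the number of reads behind a value cannot be worked out from it. Fewer cells of a type and less RNA per cell cannot be told apart in such bulk samples.

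The labelled cell types were checked against their markers. Of 13 sensory neuron markers tested, 11 passed the test as higher in DRG neurons and none as lower (1 as lower under each of 3 other scalings of the libraries, by quantile, equal total or median ratio), and all 9 granule neuron markers tested passed as lower. Prph, a sensory neuron filament gene, lay between 29357 and 43561 FPKM in DRG libraries and at 14.7 and 37.8 FPKM in CGN libraries. The paper's DRG methods report a purity count, in which a minority of counted nuclei belonged to cells without neuronal tubulin. The term DRG neurons therefore stands here for the whole culture, other cells included. Markers of other cells were also detected in both cultures. In the DRG libraries the summed FPKM of 7 Schwann and satellite cell markers was 97094, 72189 and 101924 in DRG replicates 1, 2 and 3 and 15056 and 24719 in CGN replicates 1 and 2. For 7 fibroblast markers the sums were 74863, 38476 and 80440 against 2521 and 5263 FPKM. Among the Schwann and satellite cell markers tested, 4 were higher in DRG neurons, 1 (Fabp7) was lower and 2 did not pass, and Dhh alone was listed at 0 in both CGN libraries. By their sums, the CGN libraries held more of 7 astrocyte and Bergmann glia markers (18283 and 25944 FPKM against 2320 to 3846), of 12 Purkinje, interneuron and unipolar brush cell markers (11541 and 22153 against 163 to 6290, where Pcp2 made up 5843 FPKM of DRG replicate 1) and of 6 macrophage and microglia markers (4042 and 6059 against 308 to 1092). Of the 7 astrocyte and Bergmann glia markers, 5 were lower in DRG neurons and Aldoc did not pass. Aldh1l1 was higher there, at 525 to 881 against 135 and 163 FPKM, though not with equal totals. Of the markers in these lists, Gad1, Gad2, Slc32a1, Slc6a5, Pvalb, Foxp2, Eomes, Lhx1, Aqp4, Aif1, Itgam and Cx3cr1 were listed at 0 in all DRG libraries. Foxp2 was listed at 0 in both CGN libraries too. Aif1 measured 47.2 and 0 FPKM and Itgam 148 and 0.00022 FPKM in CGN replicates 1 and 2. The part of these cells in the levels of precursors, receptors and processing genes was not tested.

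RNA of the listed members, unlike that of the other precursors given below, was concentrated in the DRG neurons. All 7 members that passed the filter on low values (an FPKM of at least 50 in at least 2 libraries) were higher there than in CGNs, with every DRG library above every CGN library. The share of all genes without overlap was not computed, so the lack of overlap is a description. In the lists of processing genes, other precursors and receptors given below, 14 of 17, 14 of 17 and 11 of 15 tested genes did not overlap, in either direction. Calcb, Nts, Adcyap1 and Npy reached 50 FPKM in 2 libraries only through the DRG libraries, so the filter itself favoured members that are higher there, and the count of 7 is a description. Without a filter, 8 members were tested, of which 7 were called higher and 0 lower. Across all 13275 genes tested, 28.4% were called higher in DRG neurons and 9.22% lower, or 3775 and 1224 genes, a split that became 2949 and 2810 with quantile scaling, 2892 and 2747 with median ratio scaling and 2288 and 3459 with equal totals. With these scalings 7, 7 and 6 members were called higher, Npy being the one lost. The test was limma on log2(FPKM + 50) with Benjamini-Hochberg adjustment over all genes and an adjusted p under 0.05. The median log2 fold change of the 7 members was 6.32, and that of all genes tested was 0.59. The 9 members summed to 226544, 264809 and 165225 FPKM in the 3 DRG libraries, which was 0.361%, 0.511% and 0.307% of all FPKM, and to 1927 and 2002 FPKM in the CGN libraries, or 0.00859% and 0.00537%. With so few cultures, p-values measure only the spread between these libraries.

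**Figure D1:**
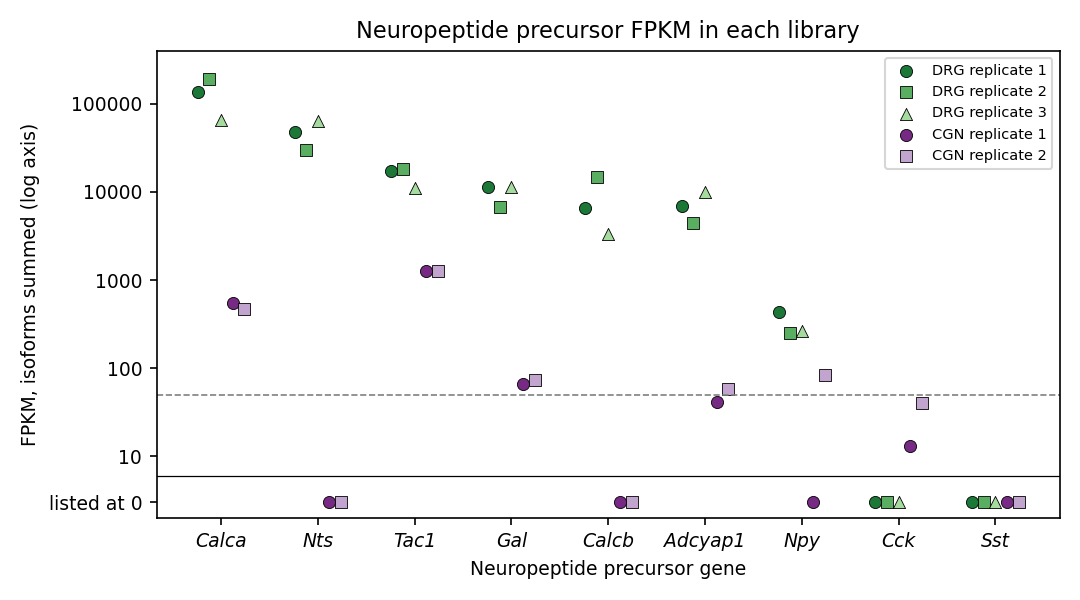
FPKM of each precursor gene, summed over its isoforms, on a log axis with a separate band for values listed at 0; each point is 1 library, and the dashed line is the filter at 50 FPKM. The 3 DRG points lie above both CGN points for Calca, Nts, Tac1, Gal, Calcb, Adcyap1 and Npy, while Cck is listed above 0 only in the CGN libraries and Sst in no library.

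The most abundant member was Calca, the first of the CGRP genes. Calca (chr7:121774974-121779847, minus strand, mm9) encodes alpha-CGRP, a vasodilator peptide of nociceptors, and by alternative splicing calcitonin. It measured 135897, 190369 and 65788 FPKM in DRG replicates 1, 2 and 3 and 554 and 471 FPKM in the CGN libraries. The lowest DRG library was thus far above both CGN libraries, and by its DRG mean of 130685 ± 62454 FPKM (SD, n = 3) Calca ranked 27 of 15154 genes. Its log2 fold change was 7.73 (SE 0.46, limma adjusted p = 1.6e-05).

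Calcb (chr7:121862148-121866868, plus strand), on the same chromosome, encodes the closely related beta-CGRP. It measured 6641, 14670 and 3372 FPKM in the DRG libraries and was listed at 0 in both CGN libraries. The gene passed the test (limma adjusted p = 6.2e-05), but no fold is given against a group listed at 0. A 0 in this table is not proof of absence, because the authors' value for both CGN libraries as a group was 36.0 FPKM for the same isoform. Rps13, a ribosomal protein gene, was also listed at 0 in all 5 libraries, 1 of 28 such genes in the table. The level of Calca was 20.5, 12.98 and 19.5 times that of Calcb in DRG replicates 1, 2 and 3.

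The CGRP genes are close copies, and some reads may fit both. In the GENCODE transcripts, 11 of 943 windows of 50 bases in one Calca transcript also occurred in Calcb, and none of the 821 windows of the other did. Of all 13274 other genes tested, the one whose pattern over the 5 libraries was most like that of Calca was Calcb, and the reverse also held. The measure was the root mean square difference of mean-centred log2(FPKM + 50), which was 0.38 between them. Because Calcb was listed at 0 in both CGN libraries, this likeness depends on the 50 FPKM added and is a description only.

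Tac1 (chr6:7504794-7512978, plus strand) encodes substance P and neurokinin A, tachykinins that are released with CGRP by many nociceptors. It measured 17366, 18071 and 11158 FPKM in DRG libraries and 1254 and 1274 FPKM in CGN libraries. Tac1 was the member with the highest level in CGNs, and the groups did not overlap. Its log2 fold change was 3.54 (SE 0.34, limma adjusted p = 1.1e-04).

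Nts (chr10:101944389-101953183, minus strand) encodes neurotensin and neuromedin N. It was the second most abundant member, at 47987, 30273 and 63398 FPKM in the DRG libraries, ranking 133 by the DRG mean of all genes, and it was listed at 0 in both CGN libraries and in the authors' value for the group. The gene passed the test (limma adjusted p = 1.4e-06). Its single isoform was estimated tightly within a library, with authors' 95% bounds of 47546 to 48427, 29921 to 30624 and 62877 to 63919 FPKM, so that the 3 intervals did not overlap and the DRG libraries differed by more than the bounds of each.

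Adcyap1 and Gal encode peptides of injured sensory neurons. Adcyap1 (chr17:93598281-93605880, plus strand) encodes pituitary adenylate cyclase-activating polypeptide (PACAP) and measured 6864, 4463 and 9915 FPKM in DRG and 41.3 and 58.4 FPKM in CGN libraries. Its log2 fold change was 6.09 (SE 0.47, limma adjusted p = 3.9e-05). Gal (chr19:3409913-3414495, minus strand), the galanin precursor, measured 11351, 6714 and 11332 FPKM in DRG and 65.4 and 74.2 FPKM in CGN libraries. Its log2 fold change was 6.32 (SE 0.41, limma adjusted p = 1.9e-05). Both genes were thus near the filter in CGNs and far above it in every DRG library.

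Npy (chr6:49772765-49779500, plus strand) encodes neuropeptide Y, which is low in intact sensory neurons. It was also the lowest of the 7 members here, at 438, 249 and 261 FPKM in DRG libraries and at 0 and 84.3 FPKM in CGN libraries. The groups did not overlap, and the log2 fold change was 2.12 (SE 0.65, limma adjusted p = 0.029). This call was not stable. Without CGN replicate 1, the library listed at 0, the log2 fold change was 1.41 and the limma adjusted p was 0.25, in a fit whose lone CGN library is assumed to vary like the DRG libraries. The call was also lost with both CGN libraries kept, with equal total FPKM (adjusted p = 0.061) and with a pseudocount of 1 (adjusted p = 0.082). In the fit of all isoforms its single isoform did not pass either (limma adjusted p = 0.13).

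Cck and Sst, precursors of cholecystokinin and somatostatin, did not pass the filter and were not tested. Cck was listed at 0 in all DRG libraries and at 13.1 and 40.3 FPKM in CGN libraries, and Sst was listed at 0 in all 5. Cck was therefore the only member of the list with a higher value in CGNs, at a level below the filter.

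Levels within the DRG neurons fell in the order Calca, Nts, Tac1, Gal, Calcb, Adcyap1 and Npy by the mean. The ranges of Calca, Nts and Tac1 did not overlap, and Npy lay below all others. The lowest value of Tac1 (11158 FPKM) was under the highest of Gal (11351 FPKM), and the ranges of Gal, Calcb and Adcyap1 overlapped. Within a library, Tac1 was above Gal in replicates 1 and 2 but not in replicate 3. Gal was above Adcyap1 in every DRG library, and Calcb was above both in replicate 2 and below both in replicates 1 and 3. Differences between these neighbours were not tested. Calca made up 60.0%, 71.9% and 39.8% of the summed precursor FPKM in DRG replicates 1, 2 and 3, and Nts 21.2%, 11.4% and 38.4%. In DRG replicate 3 the level of Calca was only 1.04 times that of Nts, while in replicate 2 it was 6.29 times. Tac1 kept a share of 6.75% to 7.67% in the DRG libraries and took 65.1% and 63.6% of the much smaller CGN sum.

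The members did not vary together among the DRG libraries. Calca, Calcb and Tac1 were highest in replicate 2 and lowest in replicate 3, while Nts and Adcyap1 were highest in replicate 3 and lowest in replicate 2. Gal and Npy were highest in replicate 1 and lowest in replicate 2. Between replicates 3 and 2 the log2 difference was -1.53 for Calca, -2.10 for Calcb and -0.69 for Tac1, against 1.07 for Nts, 1.14 for Adcyap1, 0.75 for Gal and 0.06 for Npy. Over the 12823 genes at 50 FPKM in at least 1 DRG library, the median of this difference was -0.02, with 5th and 95th percentiles of -1.74 and 1.67. Of the 7 members, Calcb alone lay outside these percentiles. The order of Calca, Calcb and Tac1 was shown by 17.4% of these genes and that of Nts and Adcyap1 by 15.2%.

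Markers of other cells were found in both of these orders. Of 7 Schwann and satellite cell markers, 2 (Mbp and Pmp22) had the order of Nts and Adcyap1, and so did 4 of 7 fibroblast markers (Col1a1, Col1a2, Col3a1 and Lum). S100b, another marker of that glial list, had the order of Calca instead, as did Cd68 among the macrophage markers. Of 6 astrocyte markers, 2 (Aldh1l1 and Aldoc) had the order of Calca, 1 (Gdf10) had that of Nts and Adcyap1, and the others had neither. The sums of the Schwann and satellite cell list and of the fibroblast list were lowest in replicate 2. Of the 13 sensory neuron markers, 2 (Isl1 and Ret) had the order of Nts and Adcyap1 and 2 (Pou4f1 and Th) had the order of Calca. The part of these cells in the differences between DRG libraries was not tested.

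**Figure D2:**
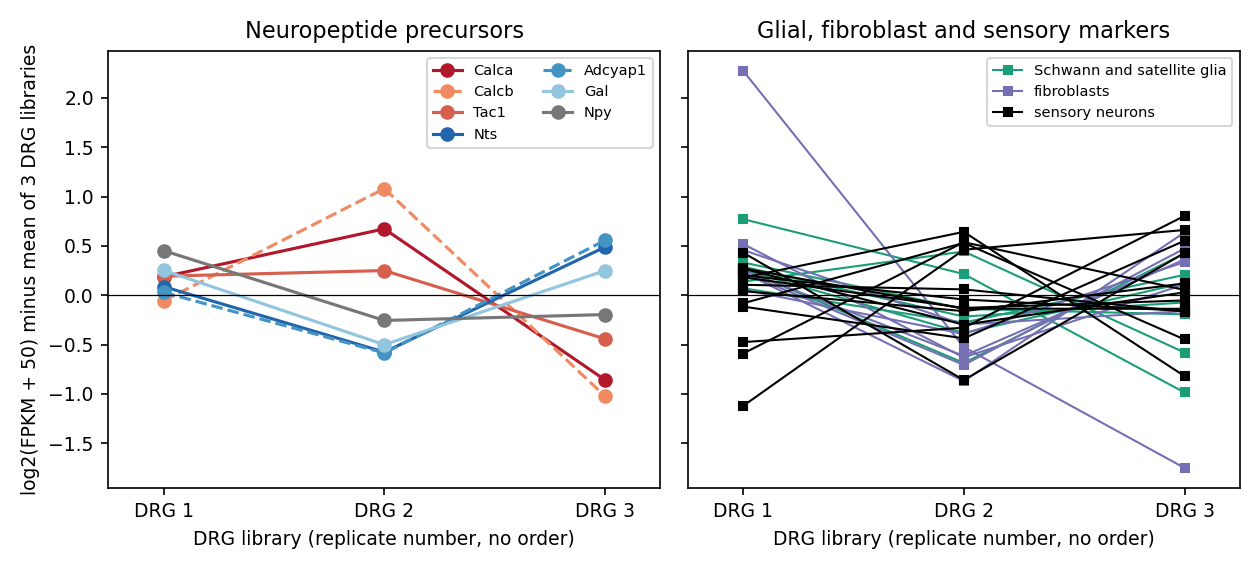
Level of each gene in the 3 DRG libraries, as log2(FPKM + 50) minus its mean over them; the left panel shows the 7 tested precursors and the right panel the tested markers of 3 cell types, 1 line per gene. Calca, Calcb and Tac1 peak in replicate 2 and are lowest in replicate 3, whereas Nts and Adcyap1 are lowest in replicate 2. Most glial and fibroblast markers are also lowest there, as are the sensory neuron markers Avil, Nefh, Prph, Isl1 and Ret. Of 12823 genes, 20.6% are lowest in replicate 2 and highest in replicate 1, and 15.2% lowest in replicate 2 and highest in replicate 3.

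The nearest genes of the other members by the same measure were not members. Nppb, a natriuretic peptide precursor, was nearest to Tac1 (0.07), Bcam to Nts (0.27), Sytl2 to Adcyap1 (0.11), Tspan17 to Gal (0.09) and Tex264 to Npy (0.07). Adcyap1 and Gal were each other's nearest member, at 0.21. The measure rests on 5 libraries in 2 groups, so a gene with a like difference between groups is near whatever its level. Nppb and Nts were listed at 0 in both CGN libraries, so the distances of their pairs depend on the 50 FPKM added.

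Isoforms were listed separately: the 9 members had 17 of them, 10 from the reference annotation and 7 assembled by the authors from the reads, which carry the suffix _j and a number. Of the 14 that passed the filter, 10 were called higher in DRG neurons and 0 lower (limma adjusted p under 0.05). Of all 33587 isoforms tested, 3233 (9.63%) were called higher and 1693 lower. The 4 members' isoforms without a call were Calca_j2, Tac1_j1, Adcyap1_j2 and the isoform of Npy. All isoforms of Adcyap1, Calcb, Nts and Npy and several of Calca reached 50 FPKM in 2 libraries only through the DRG libraries. The filter thus favoured isoforms higher there, and the count of 10 is a description. Without a filter, 16 were tested, of which 10 were called higher and 0 lower.

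Calca had a pair of reference isoforms. The one labelled uc009jig.1 measured 97716, 133422 and 49249 FPKM in DRG libraries, or 71.9%, 70.1% and 74.9% of the gene, and the one labelled uc009jif.1 measured 27673, 39054 and 11731 FPKM. Their proportion thus differed little between DRG libraries in which the gene itself varied 2.89-fold. In CGN libraries the order was not steady: uc009jig.1 held 81.7% of the gene in replicate 1 and 11.4% in replicate 2, where uc009jif.1 held 86.7%. Which of them encodes CGRP and which calcitonin is not given in the sources used here. Calca_j1 measured 10508, 17088 and 4739 FPKM in DRG and at most 0.28 FPKM in CGN libraries, while Calca_j2 measured 0.00945, 805 and 69.7 against 101 and 8.81 FPKM, and its groups overlapped.

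The isoform shares of Tac1 and Adcyap1 are given side by side for the cultures. The exact permutation test used for shares cannot give a p under 0.1 at 3 against 2 libraries, so it cannot decide on a difference. For Tac1 the reference isoform made up 42.4%, 56.0% and 39.4% of the gene in DRG and 15.6% and 25.9% in CGN libraries, 25.2 percentage points apart (exact two-sided permutation test, p = 0.1, the smallest that 3 against 2 libraries allow). Tac1_j2 was the leading isoform in all libraries but DRG replicate 2, with 55.8%, 42.0% and 57.9% against 70.0% and 57.9% (exact permutation p = 0.2). Tac1_j1 measured 320, 362 and 305 FPKM in DRG and 180 and 206 FPKM in CGN libraries, and its log2 fold change of 0.64 did not pass (limma adjusted p = 0.52), while the reference isoform had one of 4.51 and Tac1_j2 one of 3.20.

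For Adcyap1 the leading isoform was the assembled Adcyap1_j1 in all DRG libraries, with 55.3%, 54.0% and 58.1%, and the reference isoform in both CGN libraries, with 77.2% and 70.1%. The share of the reference isoform was 34.5 percentage points lower in DRG neurons, without overlap (exact two-sided permutation test, p = 0.1, the smallest possible). The CGN levels behind these shares were low, at 31.9 and 41.0 FPKM for the reference isoform and 6.45 and 10.3 FPKM for Adcyap1_j1, whose authors' lower bounds were 0. Adcyap1_j2 measured 238, 418 and 214 against 2.96 and 7.15 FPKM, with groups apart, and did not pass (limma adjusted p = 0.059).

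**Figure D3:**
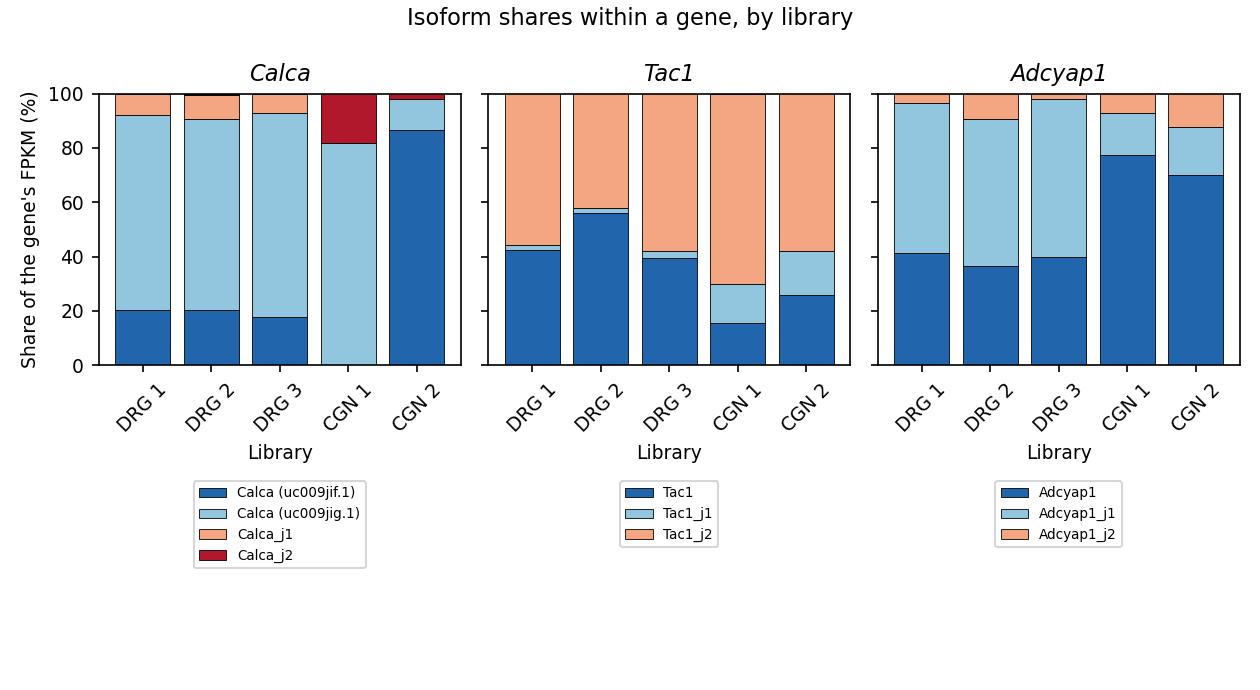
Share of each isoform in the summed FPKM of Calca, Tac1 and Adcyap1, in percent, with 1 stacked bar per library. The DRG bars are alike within Calca and within Adcyap1, the CGN bars of Calca differ from each other, and the reference isoform of Adcyap1 takes 77.2% and 70.1% in CGNs against 36.7% to 41.2% in DRG neurons.

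The sequence before the transcript starts was examined because several of these precursors are textbook targets of cyclic AMP signalling through the cAMP response element, whose full letters are TGACGTCA and whose core is TGACG. RefSeq promoter windows (GRCm38.p6, 250 bases before to 50 after a start) matched 8 of the 9 genes. Calcb had no entry. The full element, read on both strands, was found in Sst alone of the 8, and in 1.79% of all 32851 windows. The core, which is contained in the full element, was found on either strand before the start in 6 of the 8 genes (Adcyap1, Calca, Cck, Nts, Sst and Tac1), and in 17.8% of all windows. The letters were chosen after the windows had been seen, and a match describes the sequence only. Sst and Cck, which were not tested, hold such letters as well as members with high levels in DRG neurons. The stretches are shown on the strand of the gene, with the core or full element in capitals (CGTCA is the core on the opposite strand), at chr7:114636393-114636447 for Calca, chr6:7554993-7555047 for Tac1, chr10:102490555-102490609 for Nts, chr17:93198901-93198955 for Adcyap1, chr9:121495712-121495766 for Cck and chr16:23890863-23890917 for Sst, all GRCm38.p6 and not to be mixed with the mm9 positions above.
Calca: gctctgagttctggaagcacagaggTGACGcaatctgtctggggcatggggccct
Tac1: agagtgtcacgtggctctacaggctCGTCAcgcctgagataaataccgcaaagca
Nts: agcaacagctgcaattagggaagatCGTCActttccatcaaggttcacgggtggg
Adcyap1: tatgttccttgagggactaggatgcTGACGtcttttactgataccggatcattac
Cck: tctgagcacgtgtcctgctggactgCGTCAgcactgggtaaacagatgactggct
Sst: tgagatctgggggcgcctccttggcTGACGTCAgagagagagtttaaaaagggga

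Counted from the transcript start, the core began at position -65 in Calca, -43 in Tac1, -166 in Nts, -91 in Adcyap1, -47 in Cck and -48 in Sst, and Tac1 held a further one at -197.

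The machinery that turns precursors into peptides was followed with a list of 17 genes, all of them tested. DRG neurons had more of 10 of these, less of 2, and 5 did not pass, with a median log2 fold change of 1.52. Of all 13275 genes tested, 28.4% were higher and 9.22% lower. Pcsk1, a convertase that cuts precursors at paired basic residues, measured 2156, 2021 and 2886 FPKM in DRG and 7.88 and 12.8 FPKM in CGN libraries (log2 fold change 5.30, SE 0.52, limma adjusted p = 1.3e-04). Pcsk1n, which encodes an inhibitor of that convertase, lay between 46234 and 107932 FPKM in DRG and at 3228 and 4810 FPKM in CGN libraries (log2 fold change 4.22). Pam, the enzyme that amidates the end of peptides such as CGRP and substance P, measured 18000, 17100 and 13737 against 843 and 1563 FPKM (log2 fold change 3.76), and this call was lost with reference isoforms only (2.58, limma adjusted p = 0.056). Syt4, a synaptotagmin of dense-core vesicles, had a log2 fold change of 4.44.

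The genes of this list that were lower in DRG neurons were Cadps2 and Chgb. Cadps2, which primes dense-core vesicles for release, measured 249, 564 and 73.8 FPKM in DRG and 8436 and 17385 FPKM in CGN libraries (log2 fold change -5.42, SE 0.66, limma adjusted p = 3.5e-04). Chgb, the granule protein chromogranin B, had a log2 fold change of -1.29, which was not called without DRG replicate 1 (-1.19, limma adjusted p = 0.064). With the libraries scaled by quantile, by equal total or by median ratio, 6 to 8 genes of the list were higher and 3 lower. Of the 13275 genes tested, 2949, 2288 and 2892 were then higher and 2810, 3459 and 2747 lower.

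Receptors of the member peptides went both ways. Of 28 listed, 15 were tested, of which 3 passed as higher in DRG neurons, 6 as lower and 6 in neither direction. The counts were the same under each scaling. Of all genes tested, 28.4% were higher and 9.22% lower, with the changed counts under each scaling given above. Cckbr, a cholecystokinin receptor, measured 1514, 688 and 3109 FPKM in DRG and 18.3 and 48.3 FPKM in CGN libraries (log2 fold change 4.23, SE 0.69, limma adjusted p = 0.0017). Cckar, the other receptor of that peptide, measured 1042, 827 and 1663 FPKM and was listed at 0 in both CGN libraries, so that both receptors were higher where Cck itself was listed at 0. Npy1r, a neuropeptide Y receptor, measured 1965, 699 and 2628 FPKM against 30.5 and 35.3 FPKM (log2 fold change 4.26), a call lost with reference isoforms only (1.79, limma adjusted p = 0.066).

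On the lower side were Sstr2, Galr1, Vipr1 and Ramp1. Sstr2, a somatostatin receptor, measured 50.6, 75.7 and 48.9 FPKM in DRG and 10088 and 18396 FPKM in CGN libraries (log2 fold change -6.99, SE 0.51, limma adjusted p = 3.3e-05). Galr1, a galanin receptor, measured 13.7, 11.0 and 14.3 against 2643 and 3862 FPKM (log2 fold change -5.69). Vipr1, which binds PACAP among others, and Ramp1, the partner that makes the calcitonin receptor-like receptor a CGRP receptor, were listed at 0 in all DRG libraries, with 1239 and 1498 FPKM and 365 and 395 FPKM in CGN libraries. Calcrl, the receptor that Ramp1 partners, did not pass, at 4.62e-08, 133 and 129 against 10.2 and 2.21 FPKM (log2 fold change 1.07, limma adjusted p = 0.24, or 1.69 and adjusted p = 0.027 without DRG replicate 1). Galr2, another galanin receptor, did not pass either, at 109, 105 and 4.78 against 60.9 and 52.9 FPKM. Both were named after their values were seen. So was Adcyap1r1, another PACAP receptor, at 611, 159 and 211 against 1164 and 1651 FPKM (log2 fold change -2.12, limma adjusted p = 0.026). Its change reversed to 1.10 with reference isoforms only (limma adjusted p = 0.23). Galanin and PACAP precursors were thus higher in DRG neurons, and Galr1 and Vipr1 in CGNs, while the direction of Adcyap1r1 depended on the isoforms counted.

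Other precursors of neuropeptides and hormones went both ways. Of 50 listed, 17 were tested, of which 6 passed as higher, 7 as lower and 4 in neither direction. Their median log2 fold change was -0.47. Of all genes tested, 28.4% were higher and 9.22% lower. With the 3 scalings, 3 to 4 of the list were higher and 8 lower, beside the changed counts of all genes given above. The 19 that were found summed to 15914.5, 13837.5 and 12312.7 FPKM in DRG and 17710 and 14033.5 FPKM in CGN libraries. Nmb, the neuromedin B precursor, measured 6790, 9329 and 3789 FPKM in DRG and 908 and 1441 FPKM in CGN libraries (log2 fold change 2.39, SE 0.44, limma adjusted p = 0.0029). Its order among DRG libraries was that of Calca. Ucn (urocortin) at 2547, 468 and 2475 FPKM and Nppb at 546, 649 and 342 FPKM were listed at 0 in CGN libraries. Adm (adrenomedullin) had a log2 fold change of 2.47 but lost its call under each scaling and without either CGN library, which leaves 1 (2.29 and 2.66, limma adjusted p = 0.15 and 0.077). Among those higher in CGNs, Sct (secretin) at 8390 and 6874 FPKM, Rln3 (relaxin 3) at 4828 and 920 FPKM and Tac2 (neurokinin B) at 503 and 763 FPKM were listed at 0 in all DRG libraries. Pnoc, the nociceptin precursor, measured 77.4, 93.4 and 0 against 994 and 1093 FPKM (log2 fold change -3.49), and its call was lost with a pseudocount of 1 (-5.74, limma adjusted p = 0.077) and without CGN replicate 1 (-3.56, adjusted p = 0.0503), which leaves 1 CGN library. The tachykinin genes Tac1 and Tac2 thus lay on opposite sides.

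**Figure D4:**
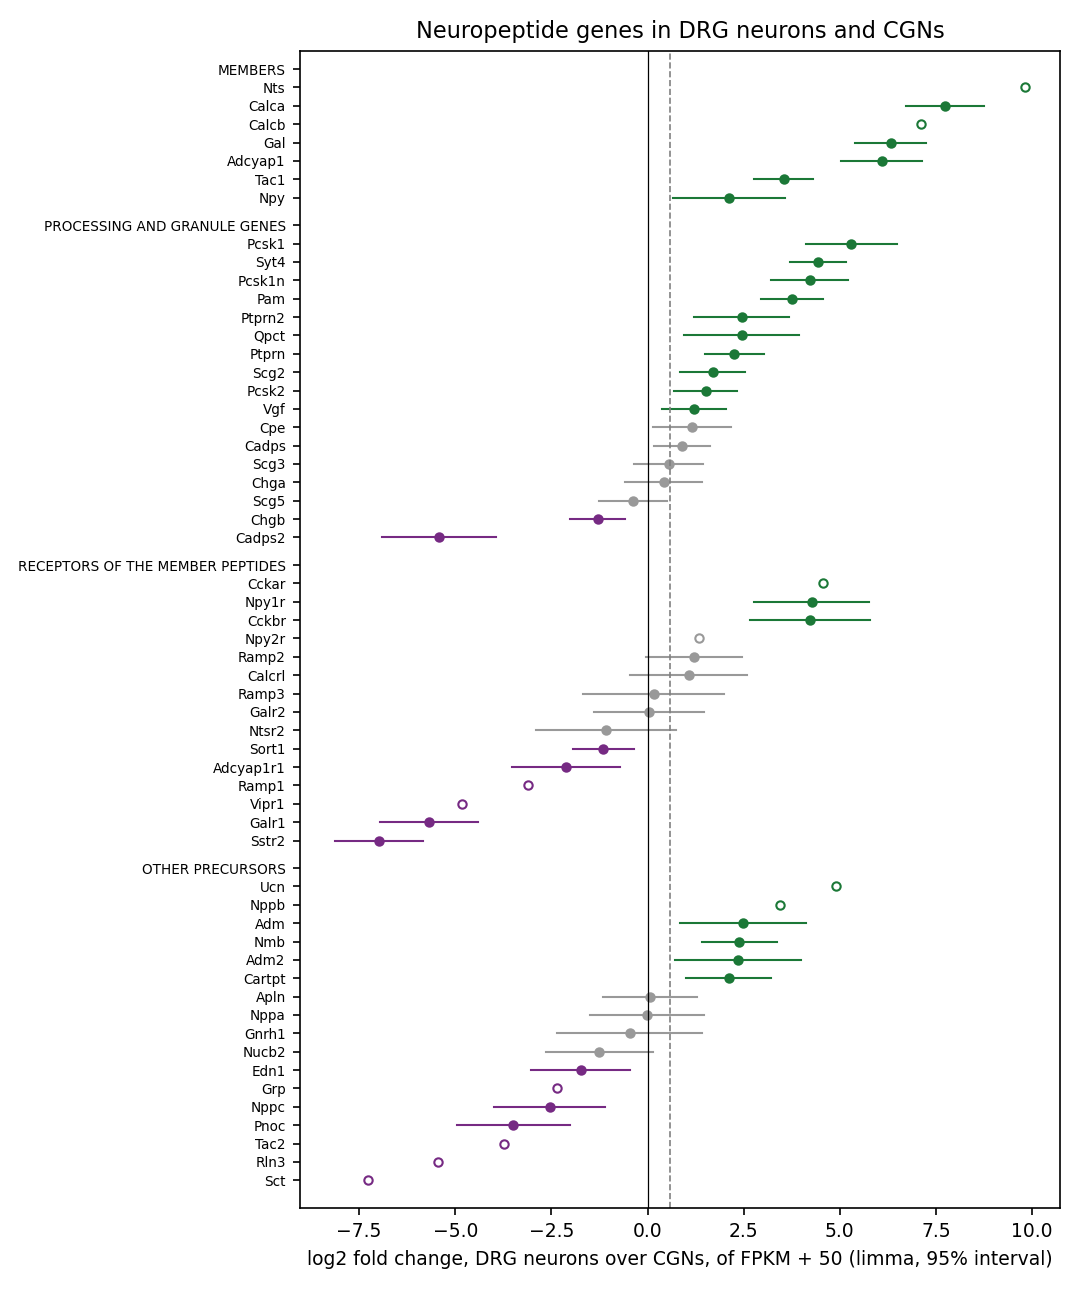
Log2 fold change of FPKM + 50, DRG neurons over CGNs, for the members and 3 related lists, with limma 95% intervals; green is higher in DRG neurons, purple lower and grey not passed, and the dashed line is the median of all genes, 0.59. Open circles are genes listed at 0 in all libraries of a group, whose position depends on the 50 FPKM added and is no bound. All 7 members lie to the right of 0, while the other lists lie on both sides.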

How the data were processed

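The authors aligned poly-A reads with TopHat to mm9, assembled isoforms with Cufflinks and deposited FPKM values per isoform and library from Cuffdiff, scaled by the upper quartile, with 95% bounds and values for the libraries of a group together. Such bounds cover the estimate within a library, not the spread between cultures. The authors' columns of fold changes and p-values were not used. Of 50356 isoforms listed, 17 repeated ones, all at 0, were dropped, and FPKM was summed per gene symbol. No counts were given, so limma 3.58.1 (R 4.3.3, trend) was run on log2(FPKM + 50) for genes and isoforms at 50 FPKM in at least 2 libraries, with Benjamini-Hochberg adjustment, in 5 libraries without covariates. Fold changes are on that scale and understate changes of low genes. The fit was tested on simulated data. All members and isoforms were named, and of each related list up to 4 called genes without overlap and with the largest change in each direction. Members and lists were chosen with earlier results of these data known. A pair of marker genes is not reported here. Alternatives were the pseudocount, the filter, 3 scalings, trend and robust settings, a replicate block, leaving out each library, reference isoforms only and isoforms with test status OK. Figures were drawn with matplotlib 3.10.9 (Python 3.11.15).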

Additional observations from a re-analysis of the deposited data

How the results depend on the processing

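Calca, Calcb, Tac1, Nts, Adcyap1 and Gal were called higher in DRG neurons at the gene level under all 17 alternatives, and 6 or 7 members were called higher in each. Npy lost its call with a pseudocount of 1 (log2 fold change 5.05, limma adjusted p = 0.082), with equal total FPKM (1.78, adjusted p = 0.061) and without CGN replicate 1 (1.41, adjusted p = 0.25). Between 9 and 11 member isoforms were called higher: Calca uc009jif.1 lost its call with a pseudocount of 1 (10.11, adjusted p = 0.056) and without DRG replicate 1 (7.15, adjusted p = 0.059), and Adcyap1_j2 gained one in 5 settings. The changes of 2 uncalled isoforms reversed, Tac1_j1 to -0.16 with equal total FPKM and Calca_j2 to -0.28 without DRG replicate 2 (range without 1 library -0.28 to 1.76). The cause was not tested. Over all genes, 2810 were lower with quantile normalization and 2747 with median ratio scaling, 2288 were higher and 3459 lower with equal total FPKM, 668 were lower with reference isoforms only and 765 with isoforms of test status OK. Taken over the genes tested, the median change (log2) was 0.01, -0.02 and -0.26 with quantile, median ratio and equal total scaling. Leaving out 1 library gave 2233 to 4535 genes higher and 359 to 1330 lower. Over all isoforms, 2069 were higher without a filter, and 3232, 2911 and 3993 were lower with quantile, median ratio and equal total scaling. Leaving out 1 library gave 591 to 3935 isoforms higher and 148 to 414 lower. With the replicate number as a block, 2444 genes were higher, all 7 members among them. The groups share only 2 numbers, and deviations of same-numbered libraries correlated at -0.023 and 0.0077 across genes. Deviations of the 2 CGN libraries mirror each other, so this check is weak. Whether the numbers pair the libraries is not known.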
